A study of Mus musculus with 6 samples.

Results

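The Dll1-positive cells described here were epithelial cells of mouse ileal crypts that held the transcript of the Notch ligand Dll1. They also stayed within limits set on chosen endocrine, stem, goblet and Paneth cell genes. They were chosen by their own counts. In all 6 libraries, cell barcodes were kept with at least 5000 UMIs (unique molecular identifiers, 1 per captured transcript), at least 500 genes and at most 20% of UMIs from mitochondrial genes. A kept cell was a member when it had at least 1 UMI of Dll1 and none of the endocrine granule genes Chga and Chgb or of the stem cell gene Lgr5. A member also had under 1% of its UMIs in the goblet genes Muc2, Fcgbp, Clca1, Zg16, Tff3 and Agr2, and under 10% in the Paneth genes Defa21, Defa22, Defa24, Defa30, Gm14851, Mptx2 and Lyz1. Of 8422 kept cells, 2053 had a Dll1 UMI, and the limits on the other genes left 660 members, which is 7.84% of the kept cells and 32.1% of the Dll1-positive ones. Applied in turn, the limit on Chga and Chgb removed 545 of the Dll1-positive cells, that on Lgr5 279, the goblet limit 535 and the Paneth limit 34.

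The study asked what the formyl peptide receptor Fpr2 does in the intestinal epithelium. Crypt cells of the ileum were dissociated, sorted for the epithelial surface protein EpCAM and captured in droplets for single-cell RNA sequencing. There were 3 libraries of Fpr2f/f mice, which carry loxP-flanked Fpr2 without Cre and are labelled WT, and 3 libraries of Fpr2VKO mice, in which the same floxed allele was combined with Villin-Cre, a recombinase driven by an epithelial promoter. The animals were untreated, sex- and age-matched adults on the C57BL/6J background, and the floxed allele was thus shared by both groups. The study counts as many mice as libraries in each group, but the labels do not tie a library to an animal, so the p-values measure the spread between these libraries. Since Villin-Cre acts throughout the epithelium, a difference within the Dll1-positive cells cannot be told apart from an effect of other epithelial cells.

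Delta-like ligands act between neighbours: a crypt cell that presents Dll1 or Dll4 activates Notch on the cells it touches, and those cells then make Hes1, a repressor of the transcription factor Atoh1. A cell that escapes the signal keeps Atoh1 on, makes more ligand, and enters the secretory lineage. Spdef acts later in goblet and Paneth cell maturation, and Neurog3, with its targets Insm1 and Neurod1, commits a cell to the enteroendocrine (EE) lineage. Dll1 transcripts in the crypt are therefore known above all from early secretory progenitors.

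The 6 libraries held between 90142126 and 189516114 UMIs. The mitochondrial limit removed 64.9% to 78.9% of the barcodes that passed the UMI and gene limits in each library, leaving 980 to 2117 cells. Pairs of libraries shared between 0 and 9 kept barcodes, and 2 members had a barcode found in another library. Of 101 cells marked as possible doublets, 4 were members. Fpr2 had 0 UMIs in the members of every library, which over all members allows up to 0.156 CPM (UMIs of a gene per 1000000 UMIs), and the deletion could therefore not be checked in these cells. The Y-linked gene Ddx3y was present in the members of all libraries and differed by 0.41 ± 0.15 on the log2 scale without overlap of the groups (adjusted p = 0.444, edgeR), and Xist was at 0 to 0.528 CPM.

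Against the name of Dll1-positive secretory progenitors, most members had no UMI of its other markers. Atoh1, the factor that opens the secretory lineage, had at least 1 UMI in 31 members (4.70%) and Spdef in 27 (4.09%). None of Atoh1, Spdef and Neurog3 was found in 568 members (86.1%). Depth raises such shares, so each cell was also thinned at random to 5000 UMIs. The thinned share of members with Atoh1 was 1.06%, beside 0.985% in 1320 cells that met every limit but had no Dll1 UMI and were matched to the members on depth, 1.51% in T cells, which should lack Atoh1, and 52.7% in goblet cells. For Spdef the thinned shares were 1.36% in members, 0.606% in the Dll1-zero cells, 0.503% in T cells and 40.1% in goblet cells. The median depth was 27873 UMIs in members and 7392 UMIs in T cells. At equal depth the Atoh1 share over all members therefore did not exceed that of the T cells. The T cell share rests on 3 of 199 cells, and the T cells of Fpr2f/f 2 had 7.88% of their UMIs in other Paneth genes and 1.26% in other goblet genes. Members with 3 or more Dll1 UMIs had more Atoh1, as given below.

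Levels gave the same order. Summed over cells, Atoh1 (GRCm38 chr6:64729125-64731245, plus strand) stood at 4.89 CPM in members, 1.32 CPM in Dll1-zero cells, 4.04 CPM in Lgr5-positive cells, 30.3 CPM in Paneth cells and 219 CPM in goblet cells. Barcodes with under 100 UMIs, which hold free RNA, had 6.67 to 11.8 CPM of Atoh1, above the pooled level of the members. In the members of each library Atoh1 was at 5.89, 8.26 and 4.71 CPM in Fpr2f/f and at 1.58, 3.46 and 7.28 CPM in Fpr2VKO, and the groups overlapped. Spdef (chr17:27714352-27728955, minus strand) was at 0.736, 2.86 and 2.54 CPM in Fpr2f/f and at 1.32, 2.07 and 1.21 CPM in Fpr2VKO, against 91.3 CPM in goblet cells and 5.15 to 9.83 CPM in the low barcodes. The cells are therefore called Dll1-positive cells below.

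Dll1 itself (ENSMUSG00000014773, chr17:15367354-15376872, minus strand), which chose the cells, was at 62.2, 82.2 and 75.4 CPM in the members of the Fpr2f/f libraries and at 55.4, 57.4 and 69.6 CPM in those of the Fpr2VKO libraries. Goblet cells, which the rule left out, carried more of it, at 159 CPM, and 43.7% of them kept a Dll1 UMI after thinning. Lgr5-positive cells were at 27.6 CPM, EE cells at 21.4 CPM, enterocytes at 16.4 CPM, Paneth cells at 7.67 CPM and T cells at 5.36 CPM. After thinning, Dll1 was found in 9.87% of Lgr5-positive cells, 13.2% of EE cells, 7.78% of enterocytes, 6.30% of Paneth cells and 1.51% of T cells, and the low barcodes held it at 16.6 to 18.3 CPM. A single Dll1 UMI is thus also met in cells of other classes, and 428 members (64.8%) had no more than 1.

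**Figure D1:**
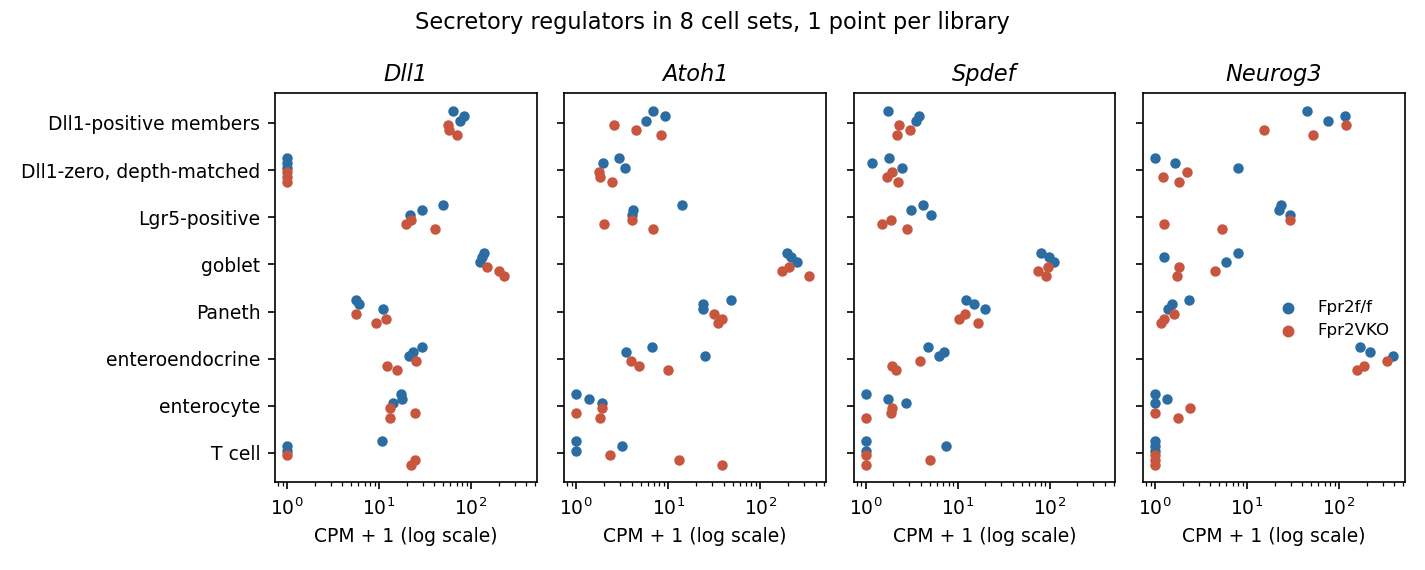
Levels of Dll1, Atoh1, Spdef and Neurog3 (CPM on a log axis, 1 panel per gene) in the Dll1-positive members and 7 other cell sets, with 1 point per library. Atoh1 and Spdef were high in goblet cells (219 and 91.3 CPM pooled) and low in the members (4.89 and 1.82 CPM), whereas Neurog3 was high in EE cells and variable in the members.

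Pooled levels of several secretory genes differed with the number of Dll1 UMIs in the members. With 1 Dll1 UMI there were 428 members, with 2 there were 129, and with 3 or more there were 103 (15.6%). Neurog3 (ENSMUSG00000044312, chr10:62133090-62134763, plus strand) was at 29.9 CPM in members with 1 Dll1 UMI, 24.6 CPM with 2 and 259 CPM with 3 or more, beside 1.54 CPM in the Dll1-zero cells. The steps were alike for its target Insm1, at 24.9, 17.9 and 205 CPM (1.98 CPM without Dll1), and for Sox4, a factor of early secretory and EE cells, at 73.7, 66.9 and 430 CPM (36.3 CPM without Dll1). Atoh1 followed at 1.36, 0.75 and 21.98 CPM, and 16 of the 103 members with 3 or more Dll1 UMIs had an Atoh1 UMI (15.5%, or 4.85% after thinning). Spdef was at 1.78, 1.49 and 2.34 CPM. Members with 1 or 2 Dll1 UMIs were close to each other in these genes, and Neurog3, Insm1, Sox4 and Atoh1 had their highest levels in the smallest class. These are values of cells chosen on Dll1, without a test.

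The high level of that class was not met in every library. In members with 3 or more Dll1 UMIs, Neurog3 was at 104, 408 and 311 CPM in the Fpr2f/f libraries and at 337, 0 and 435 CPM in the Fpr2VKO libraries. Fpr2VKO 2, the library with the most members, had no Neurog3 UMI in its 20 members of that class. In the other 5 libraries Neurog3 was at 104 CPM or more.

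**Figure D2:**
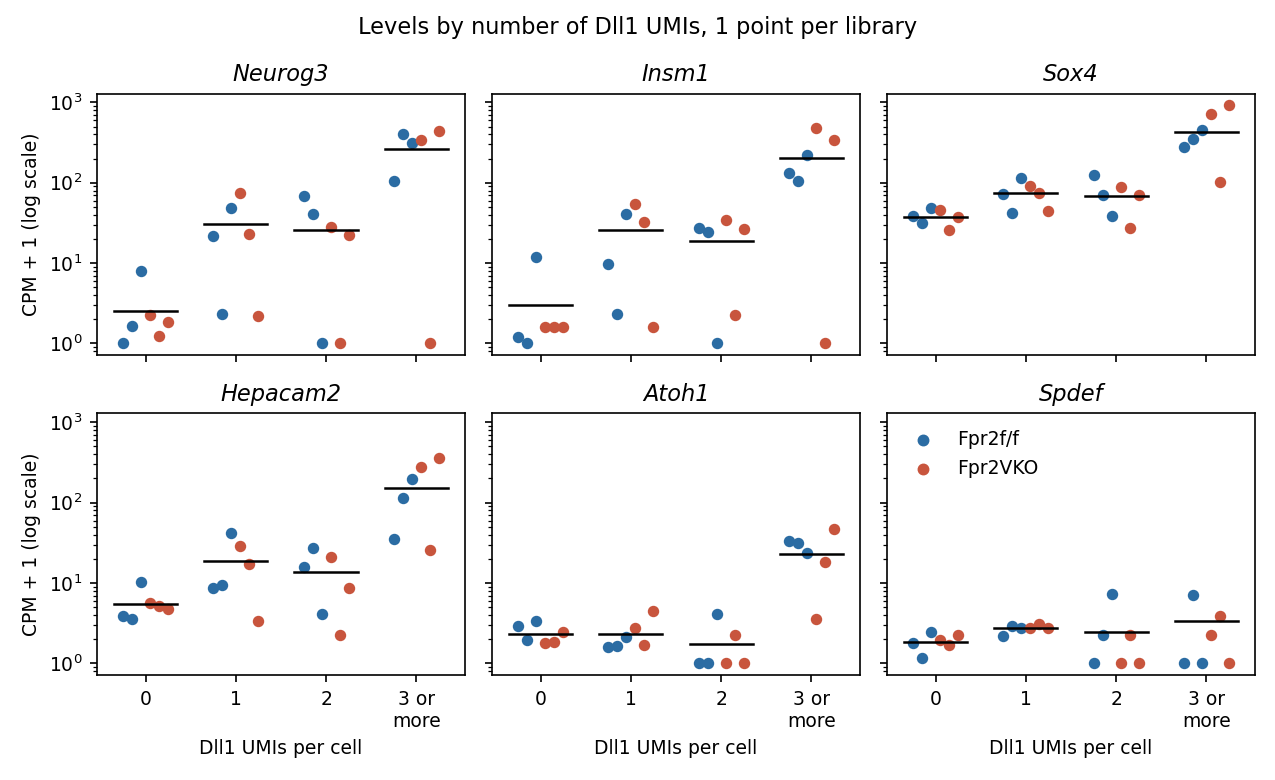
Levels of Neurog3, Insm1, Sox4, Hepacam2, Atoh1 and Spdef (CPM + 1 on a log axis) against the number of Dll1 UMIs per cell (0, 1, 2, 3 or more), with 1 point per library and a black line for all libraries pooled. Pooled Neurog3 was at 29.9 CPM with 1 Dll1 UMI and at 259 CPM with 3 or more, where 1 library was at 0.

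The endocrine transcripts came from few cells. Neurog3 was found in 50 members (7.58%, and 6.82% after thinning), 42 of which had 2 or more of its UMIs, with a median of 20.5 and a highest count of 210. It was found in 0 of 199 T cells, which allows up to 1.51% of such cells with a UMI at their median depth of 7392 UMIs, in 17 of 1320 Dll1-zero cells (1.29%), in 1.26% of goblet cells and in 31.5% of EE cells. By Dll1 count, 19 of 428 members with 1 UMI (4.44%), 6 of 129 with 2 (4.65%) and 25 of 103 with 3 or more (24.3%) carried Neurog3. Only 3 members had both Atoh1 and Neurog3. The Neurog3-positive members were shallower than the other 610, with a median of 16203 against 28791 UMIs, and held more Dll1, at 242 against 55.4 CPM.

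The 50 Neurog3-positive members, described against the other 610, held the endocrine transcription factors as a group. The genes given next as higher were so in all 6 libraries. Insm1 was at 979 against 0.496 CPM, Nkx2-2 at 253 against 0.441 CPM, Rfx6 at 236 against 0.606 CPM, Pax4 at 78.8 against 0.0551 CPM, Neurod2 at 72.3 against 0.110 CPM and St18 at 216 against 2.92 CPM. Sox4 was at 1548 against 51.6 CPM and Prox1 at 133 against 1.38 CPM. Of the 5 cell cycle inhibitor genes listed, Cdkn1a at 368 against 66.8 CPM and Cdkn1c at 114 against 3.42 CPM were higher too. Cdkn1b at 25.02 against 27.7 CPM, Cdkn2c at 7.41 against 20.7 CPM and Cdkn2d at 3.71 against 7.61 CPM were not. The proliferation gene Mki67 was lower in all 6 libraries, at 61.2 against 148 CPM, and after thinning it was found in 18.0% of Neurog3-positive and 41.5% of the other members, beside 18.1% of T cells. Of the absorptive genes, Fabp1 was at 57.5 against 1010 CPM, Fabp6 at 263 against 276 CPM and Krt20 at 252 against 179 CPM (higher in 5 of 6 libraries), so that they had no common direction.

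Hormone genes were low in the members. Sct, for secretin, stood at 6.29 CPM against 1162 CPM in EE cells. Cck, for cholecystokinin, stood at 3.07 CPM, the incretin gene Gip at 2.55 CPM, Tac1 at 0.780 CPM and Ghrl, for ghrelin, at 0.780 CPM, against 2614, 2004, 3385 and 1353 CPM in EE cells. In the Neurog3-positive members Cck reached 38.0 CPM and Sct 24.1 CPM. Of all Neurog3-positive kept cells in each library, 50% to 73% had a Chga or Chgb UMI and were left out for it.

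Because the secretory factors Atoh1 and Neurog3 are basic helix-loop-helix proteins that bind E-boxes (CANNTG), and Hes1 binds N-boxes (CACNAG), the promoters of Dll1 and of genes that were high in the members with most Dll1 UMIs were read for these letters. The windows run from 250 bases before to 50 bases after the gene start (RefSeq, GRCm38.p6), are written 5′ to 3′ on the strand of the gene, and have E-boxes in capitals. The Dll1 window is 1 of 2 that RefSeq lists, the one nearest the 5′ end of the annotated gene.
Dll1, chr17:15376883-15377182, minus strand: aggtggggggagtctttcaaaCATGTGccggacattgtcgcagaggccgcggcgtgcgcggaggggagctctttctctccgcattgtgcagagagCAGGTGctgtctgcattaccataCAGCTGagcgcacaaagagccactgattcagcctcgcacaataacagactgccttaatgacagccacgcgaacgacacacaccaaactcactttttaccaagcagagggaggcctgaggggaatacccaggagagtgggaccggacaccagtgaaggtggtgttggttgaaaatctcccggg
Neurog3, chr10:62132840-62133139, plus strand: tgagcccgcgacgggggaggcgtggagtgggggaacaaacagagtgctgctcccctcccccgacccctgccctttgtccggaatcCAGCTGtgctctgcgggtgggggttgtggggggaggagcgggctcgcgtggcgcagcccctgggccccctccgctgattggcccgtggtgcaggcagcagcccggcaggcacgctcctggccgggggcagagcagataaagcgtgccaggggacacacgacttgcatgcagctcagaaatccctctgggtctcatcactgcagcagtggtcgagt
Sox4, chr13:28953650-28953949, minus strand: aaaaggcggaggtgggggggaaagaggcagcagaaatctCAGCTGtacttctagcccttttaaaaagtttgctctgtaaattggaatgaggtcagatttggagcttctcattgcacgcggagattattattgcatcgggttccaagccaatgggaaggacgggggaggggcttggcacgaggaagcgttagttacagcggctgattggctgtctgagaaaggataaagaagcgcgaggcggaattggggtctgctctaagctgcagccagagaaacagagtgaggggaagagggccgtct
The Dll1 window held 3 E-boxes and 1 N-box, the Neurog3 window 1 E-box, and the Sox4 window 1 E-box and 1 N-box, with no overlap between the motifs. On either strand an E-box occurs in 72.3% and an N-box in 42.5% of 32851 promoter windows of this length, so that these matches are a description of the letters only.

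Among the other Notch ligands, Dll4 was low in the members at 4.99 CPM, beside 2.06 CPM in Dll1-zero cells, 37.6 CPM in goblet cells and 57.0 CPM in EE cells. By library it was at 3.31, 6.67 and 6.52 CPM in Fpr2f/f and at 7.65, 3.69 and 1.21 CPM in Fpr2VKO, and the groups overlapped. Dll4 was higher in the Neurog3-positive members than in the others, at 29.7 against 3.53 CPM. Jag1 was at 11.8 CPM, Jag2 at 1.196 CPM and Dll3 at 0.104 CPM.

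The members also carried the receiving side of the pathway. Notch1 was at 24.8 CPM in members, 21.7 CPM in Dll1-zero cells and 65.5 CPM in Lgr5-positive cells, and Notch2 at 15.3, 18.4 and 33.3 CPM in the same order. The Notch target Hes1 was at 178, 155 and 183 CPM in the Fpr2f/f members and at 173, 198 and 172 CPM in the Fpr2VKO members, a narrow range without separation of the groups. Pooled, Hes1 was at 178 CPM in members, 168 CPM in Dll1-zero cells and 259 CPM in Lgr5-positive cells, and Nrarp, another Notch target, at 25.3, 27.1 and 34.2 CPM. Neurog3-positive members differed, with Hes1 at 71.4 against 184 CPM, lower in all 6 libraries. The modulators went both ways. Maml3, a Notch co-activator, was at 313 against 53.2 CPM (higher in 6 of 6 libraries), and Mfng, which modifies Notch receptors, at 30.6 against 0.110 CPM and Rbpj, the DNA-binding partner of Notch, at 91.8 against 41.0 CPM (both higher in 5 of 6). Rfng, a relative of Mfng, was at 3.71 against 12.6 CPM and Psen2, of the receptor-cleaving protease, at 4.63 against 17.9 CPM (both higher in 0 of 6).

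Set against the depth-matched Dll1-zero cells, the members led in the same endocrine genes. The values are log2 ratios of CPM + 5, as mean ± SD over the 6 libraries, and since the rule chose the cells they carry no test. Of the 20 genes of at least 20 CPM that led by their least extreme library, the largest were Neurog3 at 3.32 ± 0.96, Insm1 at 2.95 ± 0.95, the potassium channel gene Kcnb2 at 2.80 ± 0.93, Hepacam2 at 2.08 ± 0.78 and Sox4 at 1.70 ± 0.31. Below them came Ptprn2 at 1.65, Cbfa2t3 at 1.58, Fxyd3 at 1.15, Tbc1d9 at 1.05, Marcksl1 at 1.03, Adh1 at 0.80, Btg2 at 0.77 and Fabp1 at 0.71. The remaining genes of the 20 lay between 0.54 for Clca4b and 0.67 for Ndrg1. At the other end stood lymphocyte genes, with Gzma at −4.20, Ccl5 at −4.12, Gzmb at −2.41, Ikzf2 at −2.16 and Ptprc at −1.86, and the ileal bile acid binding gene Fabp6 at −1.73. The Dll1-zero cells thus held immune cells that the members lacked: the summed share of 15 immune genes was 0.000258% to 0.00118% of UMIs per library in members and 0.00698% to 0.148% in Dll1-zero cells, with Cd3d and Lyz2 at 0 in members.

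Of the 18 EE transcription factors listed, 6 reached 5 CPM in the members, and most of these were under it in the Dll1-zero cells: Neurog3 was at 70.1 against 1.67 CPM on average over libraries, Insm1 at 53.8 against 2.16 CPM and Nkx2-2 at 14.5 against 0.868 CPM. A count over such genes is fixed by the limit and none is read here. Of the other secretory factors, Sox4 at 137 against 37.2 CPM and Tox3 at 78.5 against 41.2 CPM were above it in both sets and higher in all 6 libraries. No Notch target (0 of 2), receptor (0 of 2) or modulator (0 of 16) above that level was. Over all genes of that level, 503 of 9679 (5.2%) were higher and 395 (4.08%) lower in all 6 libraries. The ratio was 0.64 ± 0.35 for Atoh1, 0.20 ± 0.23 for Spdef, 0.43 ± 0.39 for Dll4 and 0.07 ± 0.14 for Hes1.

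Cells on either side of the limits of the rule were as follows. There were 428 members with 1 Dll1 UMI, 12 of them with Atoh1, 19 with Neurog3 and 16 with Spdef, and 3452 cells that differed by having 0, of which 80, 39 and 55 had these genes. Within 500 UMIs above the limit of 5000 there were 27 members, and 36 cells from 4500 UMIs up to that limit met the other conditions. Mitochondrial shares of 19% to 20% were found in 32 members and of 20% to 21% in 31 cells just outside. With a goblet share of 0.9% to 1% there were 7 members, 4 of which had Atoh1, and 2 cells lay at 1% to 1.1%. A single Chga or Chgb UMI kept out 158 cells and a single Lgr5 UMI 59.

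The first comparison between genotypes was the share of Dll1-positive members among the kept cells. It was 9.39%, 6.19% and 8.22% for Fpr2f/f against 7.24%, 9.38% and 7.75% for Fpr2VKO. The groups overlapped, and the means of 7.93% and 8.12% differed by 0.189 percentage points (p = 1, exact two-sided permutation test, n = 3 libraries per group, in which 0.1 is the smallest possible p). Reading the whole rule on cells thinned to 5000 UMIs gave shares of 3.47%, 4.20% and 4.15% against 3.69%, 4.37% and 4.34% (p = 0.5, exact permutation test). With a mitochondrial limit of 10%, which left 7, 15 and 3 Fpr2VKO members, the direction turned, to 5.88% against 2.04% of kept cells (p = 0.1, exact permutation test), and it also turned without Fpr2f/f 2 (−0.682 percentage points) or Fpr2VKO 2 (−0.439). The share of all cells with a Dll1 UMI, before the limits on other genes, was 24.2%, 21.4% and 20.97% in Fpr2f/f and 24.2%, 30.7% and 25.6% in Fpr2VKO (p = 0.1, exact permutation test). This share rises with depth, and among cells of 5000 to 10000 UMIs it was 14.8%, 11.2% and 10.5% against 10.6%, 17.3% and 11.7%, where the groups overlapped.

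Depth and quality of the members differed between the genotypes. Their median depth was 28098, 11323 and 20689 UMIs in Fpr2f/f and 39744, 31198 and 29384 UMIs in Fpr2VKO, and their median mitochondrial share was 11.99%, 11.9% and 12.8% against 14.3%, 12.9% and 14.6%. Neither measure overlapped between the groups (both p = 0.1, exact permutation test, the smallest possible). All comparisons of genotype move with these 2 measures, and their part in the results was not tested. Thinning evens the depth at which a gene was read, but for the shares of genes below the members were still chosen at full depth.

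**Figure D3:**
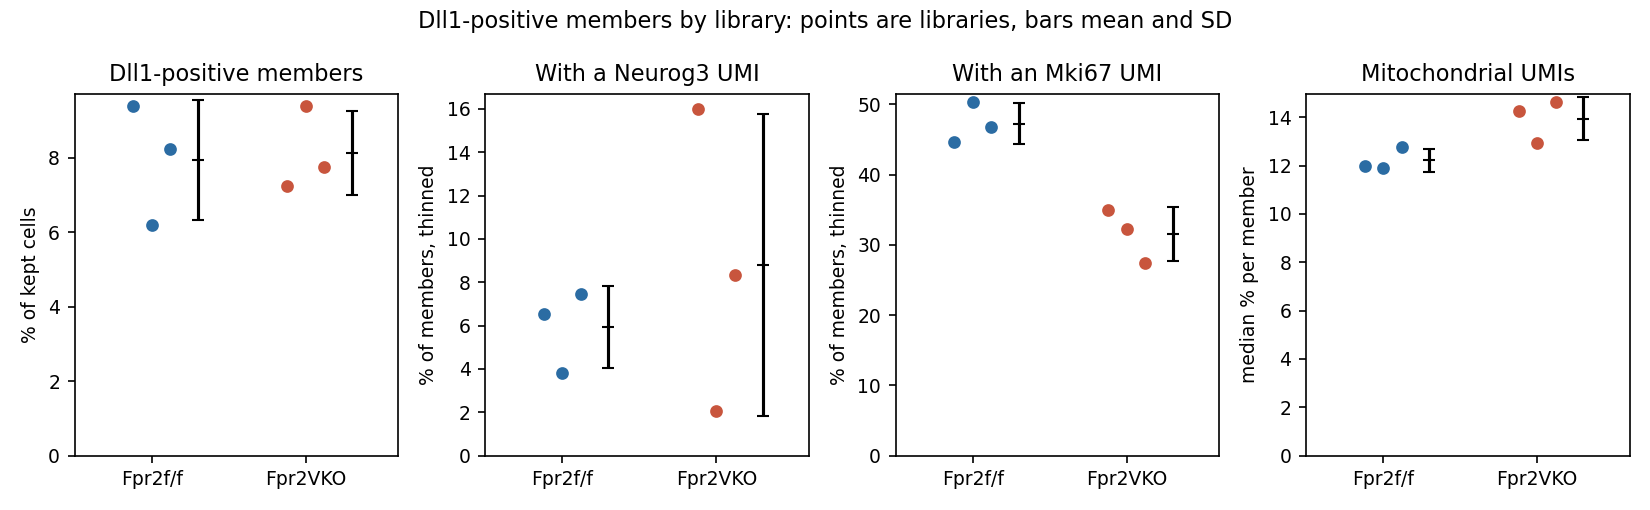
Share of members among kept cells, shares of members with a Neurog3 or an Mki67 UMI after thinning, and the mitochondrial share of UMIs (all in percent) for the 3 Fpr2f/f and 3 Fpr2VKO libraries, with points for libraries and bars for mean and SD. The member share overlapped between the groups (7.93% and 8.12% on average), whereas the Mki67 share was 44.6% to 50.4% in Fpr2f/f and 27.4% to 35% in Fpr2VKO.

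Of 7 genes whose thinned shares of positive members were compared, 1 separated the groups. By summed level in the members, 1265 of 10441 genes (12.1%) did not overlap between the groups, so that 1 of 7 is not read as a result. Mki67, a nuclear protein of cycling cells, was found in 44.6%, 50.4% and 46.7% of Fpr2f/f members and in 35%, 32.2% and 27.4% of Fpr2VKO members. Every Fpr2VKO library was below every Fpr2f/f library, with means of 47.2% ± 2.94 and 31.5% ± 3.85 (SD, n = 3 each), a difference of −15.7 percentage points (p = 0.1, exact permutation test, 0.7 after adjustment over the 7 genes). Without thinning the shares were 66.1% and 59.6% (p = 0.3, exact permutation test). Neurog3 was found after thinning in 6.52%, 3.82% and 7.48% of Fpr2f/f members and in 16%, 2.05% and 8.33% of Fpr2VKO members, so that the Fpr2VKO libraries held both the highest and the lowest value (p = 0.6, exact permutation test). The shares of Atoh1 (0.820% and 1.42%), Spdef (1.19% and 1.35%), Dll4 (3.81% and 2.42%), Gfi1 (0.312% and 0%) and the stem cell gene Olfm4 (42.4% and 46.6%) had adjusted p-values of 0.7 to 1 in the same test.

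Gene expression was then compared on UMIs summed over the members of each library, with edgeR's quasi-likelihood test and Benjamini-Hochberg adjustment over 10441 genes. Of these, 18 (0.172%) passed an adjusted p of 0.05 in the members, 14 of them higher (0.134%) and 4 lower (0.0383%) in Fpr2VKO. Mt1 alone passed in all 16 alternative settings run. The count of 18 became 53 with DESeq2, which was given all 21867 genes with a UMI and applied its own filter on mean count. The count was 41, 4 and 43 without Fpr2f/f 1, 2 or 3 and 6, 3 and 43 without Fpr2VKO 1, 2 or 3. Without Fpr2f/f 1 the balance turned, to 8 higher and 33 lower. Levels in this comparison are CPM normalized by the trimmed mean of M-values, and changes are log2 folds ± SE.

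Mt1 (chr8:94179082-94180327, plus strand), which encodes a metal-binding metallothionein, was at 381, 375 and 459 normalized CPM in Fpr2f/f and at 1486, 1524 and 1440 normalized CPM in Fpr2VKO. All Fpr2VKO libraries lay far above all Fpr2f/f libraries, a rise of 1.84 ± 0.14 (adjusted p = 1.8e-07, edgeR). Its neighbour in function Mt2 was at 67.3 and 50.2 normalized CPM on average (−0.44 ± 0.19, adjusted p = 0.621, edgeR). Mt1 also differed outside the members, by 1.80 in the Dll1-zero cells and at 182 ± 47.6 against 970 ± 127 CPM in the low barcodes, where free RNA is counted; the part of free RNA in the result was not tested.

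Rdh7 (chr10:127884028-127888817, minus strand), a retinol dehydrogenase, was at 10.2, 12.5 and 4.88 normalized CPM in Fpr2f/f and at 33.8, 52.0 and 29.4 normalized CPM in Fpr2VKO. It rose by 2.03 ± 0.29 (adjusted p = 0.0188, edgeR) with no overlap. Arg2 (chr12:79130777-79156301, plus strand), the mitochondrial arginase, was at 208, 143 and 182 normalized CPM in Fpr2f/f and at 374, 466 and 320 normalized CPM in Fpr2VKO. It rose by 1.09 ± 0.16 (adjusted p = 0.0045, edgeR), again with no overlap. Ugt2a3, a glucuronosyltransferase, was at 40.6, 36.0 and 41.1 normalized CPM in Fpr2f/f and at 77.7, 105 and 77.1 normalized CPM in Fpr2VKO. It rose by 1.12 ± 0.16 (adjusted p = 0.0045, edgeR). Both Rdh7 and Arg2 were most abundant in enterocytes among the cell sets compared (76.6 and 567 CPM, against 5.80 and 51.9 CPM in Lgr5-positive cells), and in the low barcodes they were at 4.23 and 56.7 CPM in Fpr2f/f and 8.21 and 82.8 CPM in Fpr2VKO.

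Further genes that rose were Ces1f (1.05), the monoamine oxidase Maob (0.99), the lipid phosphatase Plpp1 (0.92), the cytidine deaminase Cda (0.90), the catalase Cat (0.83) and the deacetylase Aadac (0.78), with adjusted p-values of 0.0211 to 0.0284 (edgeR). Ddc and Sult1d1 rose by 0.72 and 0.69. With a mitochondrial limit of 10% the fold turned for Maob (−1.31) and Sult1d1 (−0.079). Duoxa2 (chr2:122298900-122302885, plus strand), needed for the maturation of an epithelial hydrogen peroxide generating oxidase, was at 46.1, 31.8 and 29.3 normalized CPM in Fpr2f/f and at 13.3, 17.6 and 19.9 normalized CPM in Fpr2VKO. All Fpr2VKO libraries were below all Fpr2f/f libraries, and Duoxa2 fell by 1.12 ± 0.21 (adjusted p = 0.0283, edgeR). In the low barcodes it was at 34.2 and 15.3 CPM. At lower levels the interferon-induced gene Oasl2 rose (1.34), as did Gstm6 (1.57), while Cphx3 (−1.51) and Terb1 (−2.38) fell. Gstm6 and Cphx3 have related genes of similar sequence. Whether reads were shared with these was not tested, and their counts are uncertain.

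**Figure D4:**
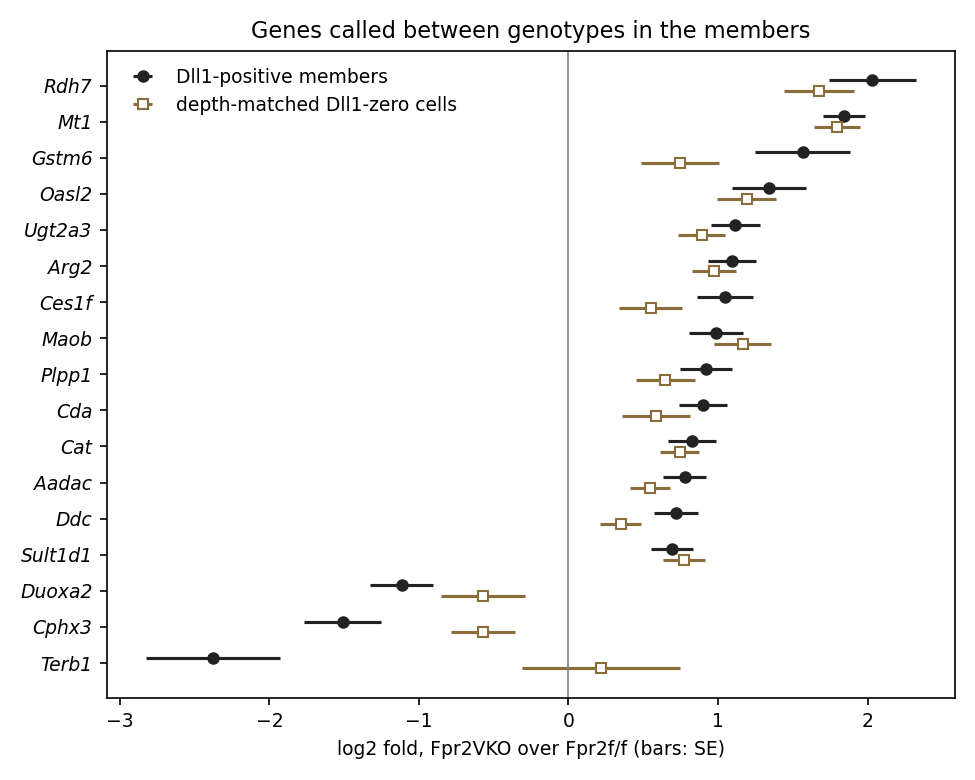
Log2 fold change ± SE (Fpr2VKO over Fpr2f/f) of 17 of the 18 genes that passed the test in the members (black circles), with the same comparison in depth-matched Dll1-zero cells (open squares). Mt1 lay at 1.84 in members and 1.80 in Dll1-zero cells, and Terb1 at −2.38 in members and 0.22 in Dll1-zero cells.

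In the Dll1-zero cells the same test passed 21 of 11515 genes (0.182%). The test of whether the genotype effect differed between members and Dll1-zero cells passed 0 of 11709 genes (edgeR), with 519 at an unadjusted p under 0.05. Its smallest p belonged to Runx1, with a difference of −1.68 ± 0.32 (adjusted p = 0.202, edgeR). The summed share of immune genes in the Dll1-zero cells was uneven, at 0.043%, 0.015% and 0.042% in Fpr2f/f and 0.148%, 0.037% and 0.007% in Fpr2VKO. The part of immune cells in these differences was not tested. Without the filter on low counts 18 genes passed. Leaving out Fpr2f/f 1, 2 or 3 gave 1 gene each, and leaving out Fpr2VKO 1, 2 or 3 gave 0, 15 and 10. The count of 0 in the main test thus rests on the filter and on the libraries used. With all 6 libraries and the filter, no change was shown to be particular to the members.

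No listed gene of the Notch pathway passed the test between genotypes. Dll1 itself chose the cells, so that its level between genotypes is not read. Of 2 other Notch ligands, 2 receptors, 2 targets and 19 modulators tested, 0 passed, and 0 had an unadjusted p under 0.05 (edgeR). Such an unadjusted p was met by 3.73% of all genes higher and 3.39% lower in Fpr2VKO. Over all genes 0.172% passed, so that a count of 0 in lists of this size, here and in those that follow, does not set them apart. Dll4 differed by −0.33 ± 0.49, Jag1 by 0.08, Notch1 by 0.22 ± 0.19, Notch2 by −0.34, Hes1 by 0.08 ± 0.14 (adjusted p = 0.962, edgeR) and Nrarp by −0.26. Among 13 secretory factors 0 passed, with Atoh1 at −0.71 ± 0.46, Sox4 at 0.13 ± 0.44, Klf4, a factor of goblet cell maturation, at −0.69 ± 0.18 (adjusted p = 0.146) and Foxa1 at −0.56 ± 0.20 (adjusted p = 0.429, edgeR). Among 6 EE factors 0 passed, with Neurog3 at −0.37 ± 0.87 and Insm1 at 0.70 ± 0.83. The error of these 2 is large and few cells carry them, but the cause of the error was not tested.

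Behind these stood the Neurog3 levels of 44.2, 117 and 75.0 CPM in the Fpr2f/f members and of 119, 14.5 and 51.0 CPM in the Fpr2VKO members. Insm1 was at 33.1, 33.7 and 56.9 CPM in Fpr2f/f and at 137, 20.7 and 41.7 CPM in Fpr2VKO, and Sox4 at 117, 129 and 146 CPM and at 219, 69.6 and 141 CPM. In Fpr2f/f 2, 1 member alone held 210 UMIs of Neurog3. In all 3 genes Fpr2VKO 1 was the highest and Fpr2VKO 2 the lowest library. The number of Neurog3-positive members was 7, 7 and 9 in Fpr2f/f and 16, 3 and 8 in Fpr2VKO.

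Among the other lists, those of proliferation and absorption leaned in opposite directions without any member passing. All 18 tested G2/M genes had a fold below 0 in Fpr2VKO, beside 52.1% of all genes, with a median of −0.38 (−0.28 in Dll1-zero cells, −0.01 over all genes). Of these, 7 had an unadjusted p under 0.05, beside 3.39% of all genes in that direction, and 0 passed. The summed share of the list was 0.207%, 0.248% and 0.148% of member UMIs in Fpr2f/f and 0.157%, 0.153% and 0.152% in Fpr2VKO, so that Fpr2f/f 3 lay below every Fpr2VKO library and the groups overlapped. Mki67 was at 166 ± 30.7 and 125 ± 4.03 normalized CPM (−0.44 ± 0.15, adjusted p = 0.366, edgeR), and the mitotic genes Kif11, Aurka and Top2a differed by −0.45, −0.48 and −0.40. Of 20 S phase genes, 17 had a fold below 0, with a median of −0.12.

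Of 18 enterocyte genes, 15 had a fold above 0, with a median of 0.55 (0.87 in Dll1-zero cells), 10 had an unadjusted p under 0.05 (3.73% of all genes did in that direction), and 0 passed (2 did in Dll1-zero cells). The summed share of the list went the other way and overlapped, at 2.15%, 1.34% and 1.94% of member UMIs in Fpr2f/f and 1.199%, 2.18% and 1.06% in Fpr2VKO. The fatty acid binding gene Fabp2 differed by 0.75 ± 0.18 (adjusted p = 0.132, edgeR) and the disaccharidase gene Sis by 0.56. The antimicrobial lectin genes Reg3b and Reg3g, at −0.66 and −0.76, and Fabp6, at −1.66, went the other way and did not pass. Of 17 stem cell genes, 8 had a fold above 0 and 9 below, with a median of −0.07, and 0 passed. An unadjusted p under 0.05 (edgeR) was met by 3 higher and 0 lower stem cell genes, beside 3.73% of all genes higher. Olfm4, the most abundant example, was at 820 and 1264 normalized CPM (0.60 ± 0.17, adjusted p = 0.248, edgeR). The 7 ribosomal genes that the study picked out on these samples, and that are no independent evidence, all had a fold below 0, with a median of −0.43 and 0 past the test.

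**Figure D5:**
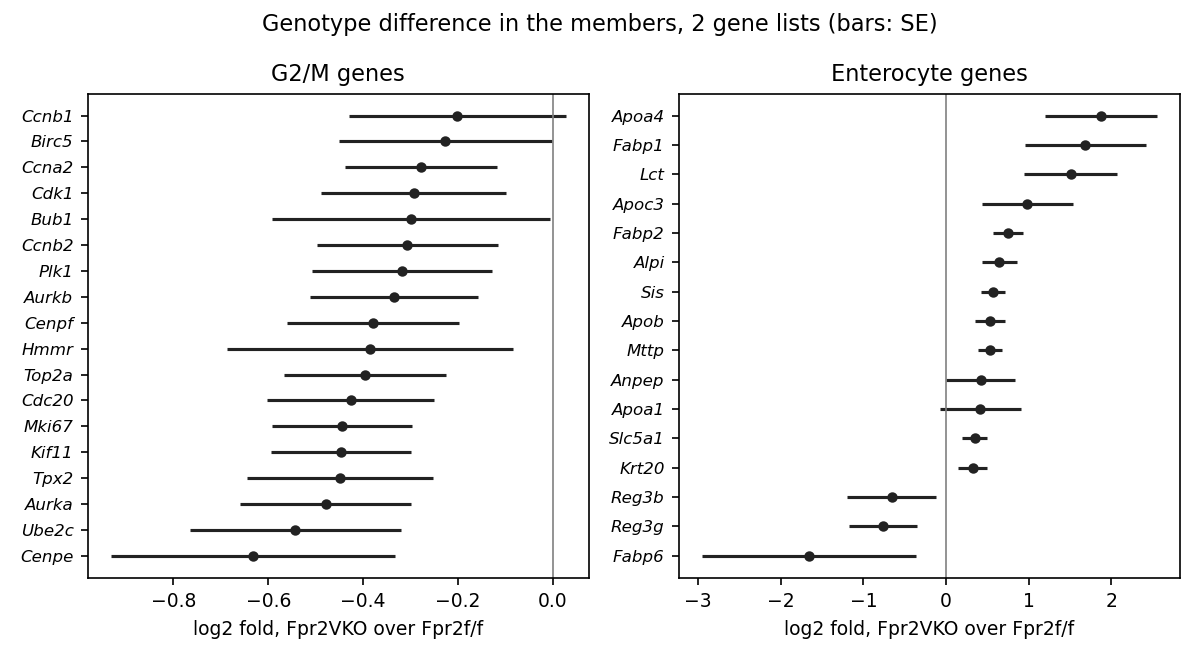
Log2 fold change ± SE (Fpr2VKO over Fpr2f/f) in the members for the 18 G2/M genes and 16 of the 18 enterocyte genes tested, with 0 marked. All the G2/M genes lay below 0 and most of the enterocyte genes above it, and 0 of either list passed the adjusted test.

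No other list passed beyond single genes. None of 12 goblet genes outside the rule, 9 Paneth genes, 6 tuft cell genes, 3 hormone or granule genes, 10 genes of cell cycle exit and 20 genes of the secretory apparatus passed. Of the metallothioneins 1 of 2 rose (Mt1) and of the interferon-induced genes 1 of 6 (Oasl2), beside 0.134% of all genes. No immune gene was abundant enough to test.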

How the data were processed

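The deposited files are raw UMI counts per gene and barcode for 6 libraries. The authors made them by aligning the reads to mm10 with MobiVision and went on to normalize and cluster cells with Seurat. The submitters' notes name Seurat 4.0, and those later steps are not in the counts used here. Members, gene lists and tests were chosen with earlier results of these data known.

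Cells were filtered and members selected in Python 3.11.15 by the rule given above, and 2 Dll1-zero cells were matched to each member by log UMI count within a library. Other cell sets were goblet (at least 5% of UMIs in the goblet genes), Paneth (at least 10%), EE (at least 5 UMIs of Chga and Chgb), Lgr5-positive (at least 1 Lgr5 UMI within the other limits), T cells (at least 2 UMIs of Cd3e, Cd3d, Cd3g, Trac and Trbc2) and enterocytes (the 5% of cells with the highest share of enterocyte genes). Doublets were simulated (25%), each cell was given the fraction of simulated ones among its 30 neighbours, and the top 0.8% per 1000 cells were marked, but kept. Shares were thinned to 5000 UMIs. Counting intervals and limits cover counting error only.

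UMIs of members were summed per library and tested in R 4.3.3 with edgeR 4.0.16 (TMM, filterByExpr, robust quasi-likelihood) without a block, with DESeq2 1.42.0 as an alternative. The difference of genotype effects was an interaction term with the library as a block. Shares were tested by exact two-sided permutation of the 6 libraries. The scripts were tested on simulated data. Genes named between genotypes had an adjusted p under 0.05, a mean of at least 20 CPM, no overlap of the groups and the 10 largest folds in each direction; the other genes past the test were named after their values were seen. Those named against Dll1-zero cells had the 20 largest and 10 smallest ratios in the least extreme library. Some genes that these criteria or the lists would name are not reported here, while all counts include them. Alternatives covered normalization, low-count filter, the limits on UMIs, mitochondrial share and Dll1, doublets, the replicate block and each library in turn.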

Additional observations from a re-analysis of the deposited data

How the results depend on the processing

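Several settings moved the results, and the cause was not tested. The difference in member share (0.189 percentage points, Fpr2VKO minus Fpr2f/f) became −3.84 with a mitochondrial limit of 10%, −0.206 with 40%, −0.160 with at least 2 Dll1 UMIs and 0.731 with at least 10000 UMIs, and lay between −0.682 and 0.918 with 1 library left out. The difference in thinned shares, with 1 library left out, ranged from −0.478 to 1.31 for Atoh1, −0.432 to 0.970 for Spdef, −0.744 to 6.23 for Neurog3, −2.21 to −0.782 for Dll4, −0.467 to 0 for Gfi1, −17.4 to −13.6 for Mki67 and 0.168 to 8.62 for Olfm4. Without thinning it was −0.0627 for Atoh1 and 0.912 for Dll4. The 18 genes that passed became 53 with DESeq2, which applied its own filter on mean count instead of the one used with edgeR. They became 150 with no filter in edgeR and 1 with at least 2 Dll1 UMIs. Mitochondrial limits of 10% and 40% gave 1 and 3, and leaving 1 library out gave 3 to 43. An alternative chosen after seeing the data, members with no Neurog3 UMI, gave 38. With the replicate number as a block there were 67 (51 higher, 16 lower), but the numbers do not pair the samples (correlations of −0.03, 0.09 and 0.23 between same-numbered libraries). The genes whose genotype effect differed (0) became 18 with no filter on low counts and 0 to 15 with 1 library left out.

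Among single genes, the log2 fold turned with a mitochondrial limit of 10%, under which the Fpr2VKO libraries kept 7, 15 and 3 members, for Maob (−1.31), Sult1d1 (−0.079), Neurog3 (1.80), Mki67 (0.13) and Hes1 (−0.20), and with 40% for Hes1 (−0.046). With 1 library left out it ranged from −1.34 to 0.13 for Neurog3 (above 0 without Fpr2f/f 2 or Fpr2VKO 2), −0.32 to 0.47 for Sox4 and −0.42 to 1.15 for Insm1 (both below 0 without Fpr2VKO 1) and −1.01 to 0.038 for Dll4 (above 0 without Fpr2VKO 3). It turned with at least 2 Dll1 UMIs for Notch1 (−0.072) and without Neurog3-positive members for Sox4 (−0.32). With 1 library left out of a group, the remaining 2 are few, and genes present in few members, such as Neurog3 and Atoh1, are limited by counting.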
